A study of Mus musculus with 30 samples.

Results

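The genes described here are 44 genes of B-cell identity and B-cell receptor signalling, listed by name, out of the 55401 gene rows of the count table. They comprise 2 receptor chains, 7 receptor signalling genes, 10 surface antigens, 14 transcription factors, 7 genes of the pre-B stage and of receptor gene recombination, and 4 plasma cell genes. RNA was sequenced from 30 cell lines, 1 library each, all derived from a single mouse lymphoma line, Eµ-Myc; p19ARF -/-, which carries Myc under the immunoglobulin heavy chain enhancer and lacks p19ARF, and which was grown in suspension in B-cell medium. Of these, 17 paclitaxel resistant lines had received weekly cycles of paclitaxel, a drug that stabilizes microtubules, at a dose aimed at killing 85% of the cells in 3 days, each followed by 4 days without drug. Another 12 lines, the DMSO control lines, went through the same cycles with the solvent, both for 12 to 18 weeks, and the 1 parental line has no treatment in its label. Each DMSO and paclitaxel line grew from the same starting line in a well of its own, so the p-values below measure the spread between lines of 1 origin and do not extend to other lymphomas.

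Libraries held from 480919 (Pac C1) to 6739131 (DMSO 11) counts, so that 3 counts, taken as the floor of detection, corresponded to 6.24 and 0.445 counts per 1000000 (CPM). Levels below are CPM normalized by TMM, which scales libraries to a common composition. Because reads were taken from transcript 3′ ends, a level does not grow with transcript length. Labels of 2 libraries went against the efflux pump gene Abcb1b, which pumps paclitaxel out of cells. The library labelled DMSO 12 held 69.9 CPM of Abcb1b, against at most 45.5 CPM in the other DMSO libraries, and over all tested genes it correlated more closely with the paclitaxel mean (r = 0.940) than with the DMSO mean (r = 0.926). The library labelled Pac H9 held 26.1 CPM, against at least 41.9 CPM in the other paclitaxel libraries, and was closer to the DMSO mean (r = 0.925) than to the paclitaxel mean (r = 0.916). Moving each label from DMSO 12 on by 1 library would give the library labelled DMSO 12 a paclitaxel label and the library labelled Pac H9 the label Parental, and the library labelled Parental would then have none. DMSO 11 and Pac C1 also lay nearer the other group's mean, by differences in r of under 0.01, as did Pac H9, but their Abcb1b levels, 25.05 and 49.9 CPM, were inside the range of the other libraries of their group. Comparisons are therefore given with all labels and without DMSO 12 and Pac H9.

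B cells recognise antigen through an immunoglobulin that is held at the membrane by the signalling chains Cd79a and Cd79b. Engagement of the receptor activates the kinases Lyn, Blk, Syk and Btk, the adaptor Blnk and the phospholipase Plcg2, while Cd22 and Cd72 restrain the signal. The lineage is set up by Ebf1, Tcf3 and Pax5, passes through a pre-B stage marked by Rag1, Rag2 and the surrogate light chain, then gains Ms4a1 and surface immunoglobulin, and ends in plasma cells driven by Prdm1 and Xbp1.

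Both receptor chains and all receptor signalling genes but Blk exceeded the floor in all 30 libraries, and Blk did in 28. Of the surrogate light chain genes, Igll1 exceeded it in 17 libraries, Vpreb1 in 15 and Vpreb2 in 1, and of the plasma cell genes, Xbp1 did in 30, Mzb1 in 26, Sdc1 in 11 and Prdm1 in 3. Of the 44 genes, 27 exceeded the floor in all 30 libraries and 37 passed the filter on low counts. The 7 genes that did not pass were Bcl6, Cr2, Vpreb1, Vpreb2, Dntt, Prdm1 and Sdc1. Bcl6, the repressor of the germinal centre programme, had 0 counts in all 30 libraries, which allows a level of up to 0.445 CPM in the deepest and 6.24 CPM in the shallowest. Cr2, a complement receptor of mature B cells, reached at most 11 counts in a library, and its highest level was 3.40 CPM (Pac C3). Outside the set, Ighm, the constant region of IgM, was read at 2643 to 6242 CPM in the DMSO lines and 1967 to 6796 CPM in the paclitaxel lines. Of markers of other cell types, few were read. Of 12 T-cell genes, 2 passed the filter and Cd3e and Cd4 had 0 counts, with a summed level of at most 27.9 CPM, and of 12 myeloid genes, 2 passed and 5 had 0 counts, with a summed level of at most 58.6 CPM. Of 11 erythroid, natural killer and stromal genes only the globin Hbb-bt passed, at 6.95 to 72.1 CPM in the DMSO lines and 4.20 to 249 CPM in the paclitaxel lines.

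**Figure D1:**
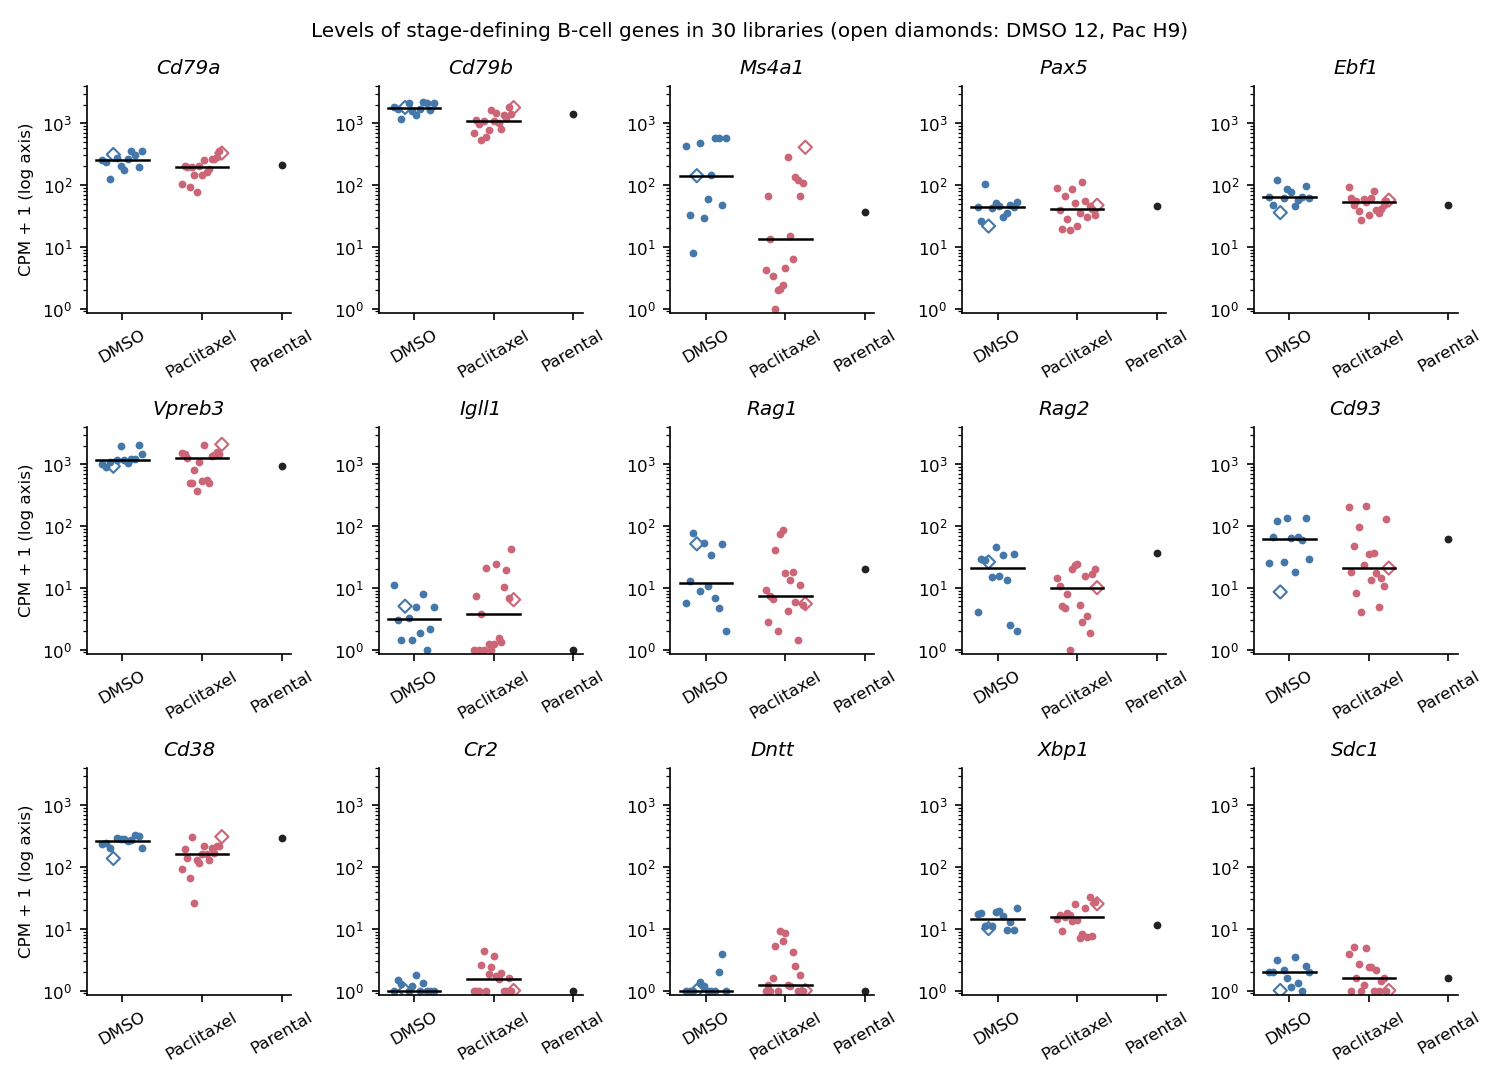
Levels of 15 stage-defining genes in every library, as CPM + 1 on a log axis, with a point for each library and a bar at the group's median. Cd79b and Vpreb3 lie near the top in every library, Ms4a1 ranges from 0 to 579.9 CPM, and Cr2, Dntt and Sdc1 lie at the bottom, at 8.11 CPM or less.

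Over the whole set, no gene passed the threshold of adjusted p under 0.01 between paclitaxel and DMSO lines when all labels were kept. The comparison asks whether lines selected by paclitaxel kept the B-cell programme of the solvent controls. By edgeR's quasi-likelihood test with Benjamini-Hochberg adjustment over 9445 genes, 208 genes (2.20%) were called, 0.995% higher and 1.21% lower, and 0 of the 37 tested members were among them, while 11 members had an unadjusted p under 0.05, beside 25.1% of all tested genes. DESeq2 called 2 members, Cd79b and Ptprc, beside 5.20% of all genes, and edgeR's likelihood ratio test called 3, Cd79b, Ptprc and Bank1, beside 4.74%. Without DMSO 12 and Pac H9, 321 of 9567 genes (3.36%) were called, and 2 members among them, Cd79b and Bank1, both lower in the paclitaxel lines, beside 1.65% of all genes called higher and 1.70% called lower. That count of 2 in 37 members is small, and its share was not tested against the background. With labels moved by 1 library, 0 members were called, beside 3.39% of all genes. At a threshold of 0.05, which 7.56% of all genes passed with all labels (3.93% higher, 3.63% lower), 4 members passed, Ptprc and Plcg2 higher and Cd79b and Bank1 lower. Without the doubtful libraries 9.41% of all genes passed 0.05 (5.02% higher, 4.39% lower), and 6 members did, with Ms4a1 and Cd38 lower in addition. With moved labels, adjusted p-values by the same edgeR test were 0.016 for Cd79b and Bank1, 0.0179 for Cd38 and 0.0378 for Ptprc. For Ms4a1 and Plcg2 they were 0.0561 and 0.125. Log2 fold changes of the 37 members had a median of -0.16, beside 0.07 over all tested genes, with 20 below 0 and 17 above 0, where 4102 of the 9445 genes lay below 0. No member separated the groups completely, and neither did any of the 9445 genes (0%). Without the doubtful libraries 0.146% of genes did, and 0 members.

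**Figure D2:**
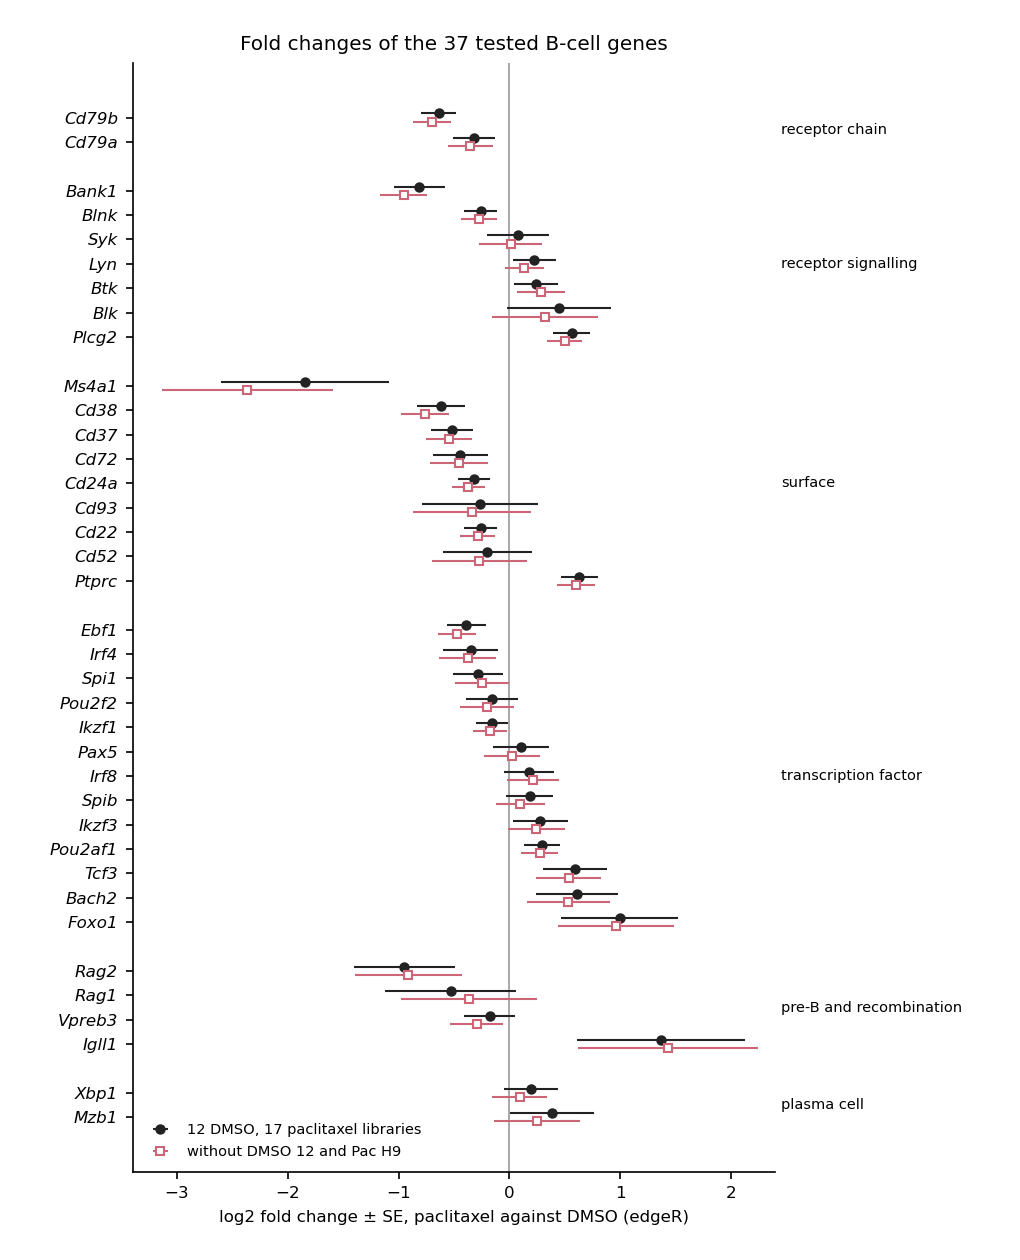
Log2 fold change ± SE of the 37 tested genes, paclitaxel against DMSO lines, in blocks by role, with all labels (filled circles) and without DMSO 12 and Pac H9 (open squares). Cd79b and Bank1 lie below 0 under both, Ptprc and Plcg2 above 0, and Ms4a1 has the lowest estimate, -1.84 and -2.37, with a wide error.

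Both receptor chains were read far above the floor in every line, and Cd79b was lower in most paclitaxel lines. Cd79b (chr11:106311341-106314762, GRCm38), which with Cd79a carries the receptor's signalling motifs, ranged from 1170.1 CPM (DMSO 11) to 2174 CPM (DMSO 6), with a median of 1750.0 CPM, in the DMSO lines. It ranged from 532 CPM (Pac C11) to 1842 CPM (Pac H4), with a median of 1098 CPM, in the paclitaxel lines. Of the 17 paclitaxel lines, 10 lay below the lowest DMSO line and 0 above the highest, so the groups overlapped in the upper part of the paclitaxel range. With all labels the difference missed the threshold (log2 fold change -0.64, SE 0.16, adjusted p = 0.0132), and without DMSO 12 and Pac H9 Cd79b fell (log2 fold change -0.70, SE 0.17, adjusted p = 0.00837). Both doubtful libraries held a high level, 1796 CPM in DMSO 12 and 1788 CPM in Pac H9. With moved labels it was not called (log2 fold change -0.64, adjusted p = 0.016). Over all alternatives its adjusted p lay between 0.00358 and 0.0291. Leaving out DMSO 11 (0.00705), Pac H4 (0.00664) or Pac H9 (0.0067) alone brought it under 0.01, by the same edgeR test. In bulk RNA, fewer cells with the transcript and less transcript per cell cannot be told apart, here or for the genes below.

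Cd79a, the partner chain, ranged from 124 CPM (DMSO 11) to 356 CPM (DMSO 6), with a median of 254 CPM, in the DMSO lines, and from 77.0 CPM (Pac D4) to 350.4 CPM (Pac H8), with a median of 195 CPM, in the paclitaxel lines. Only 3 paclitaxel lines lay below the lowest DMSO line, and the difference was within the spread (log2 fold change -0.32, SE 0.19, adjusted p = 0.303). Levels of the chains followed each other from line to line. In log2 CPM, Pearson's r of Cd79a and Cd79b was 0.94 over the 12 DMSO lines (permutation test, adjusted p = 0.00012, Spearman's rho 0.93, adjusted p = 0.00036) and 0.83 over the 17 paclitaxel lines (adjusted p = 0.00012, rho 0.89, adjusted p = 0.00012). The 2 lines farthest from the Cd79a median did not carry the relation, since r without them was 0.85 and 0.81. The 4 lowest Cd79b levels were in Pac C11, Pac D10, Pac A6 and Pac D4, and ran from 532 to 784 CPM.

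Of the 7 signalling genes, 0 passed the threshold with all labels, and Bank1 alone passed it without the doubtful libraries. Bank1 (chr3:136053363-136326066), a scaffold that links the receptor to Lyn and to calcium release, ranged from 80.9 CPM (DMSO 10) to 219 CPM (DMSO 8), with a median of 162 CPM, in the DMSO lines. It ranged from 31.9 CPM (Pac C11) to 241 CPM (Pac H9), with a median of 79.4 CPM, in the paclitaxel lines. Below the lowest DMSO line lay 10 of the paclitaxel lines, and the only paclitaxel line above the highest DMSO line was Pac H9. With all labels Bank1 missed the threshold (log2 fold change -0.81, SE 0.23, adjusted p = 0.025), and without the doubtful libraries Bank1 fell (log2 fold change -0.95, SE 0.21, adjusted p = 0.00476). With moved labels it was not called (log2 fold change -0.84, adjusted p = 0.016). Leaving out Pac H9 alone gave -0.97 with an adjusted p of 0.00327 by the same test, and the range over all alternatives was 0.00327 to 0.052.

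Plcg2, the phospholipase that turns the receptor signal into calcium release, ranged from 18.6 CPM (DMSO 12) to 57.1 CPM (DMSO 1), with a median of 39.5 CPM, in the DMSO lines, and from 34.8 CPM (Pac E1) to 106 CPM (Pac A6), with a median of 54.0 CPM, in the paclitaxel lines. No paclitaxel line lay below the lowest DMSO line and 8 lay above the highest, but the difference missed the threshold with all labels (log2 fold change 0.56, SE 0.17, adjusted p = 0.0344) and without the doubtful libraries (log2 fold change 0.50, SE 0.16, adjusted p = 0.0461). Moving the labels gave a Plcg2 estimate of 0.44 with an adjusted p of 0.125 by the same test. Blk, a Src-family kinase of B cells, varied most of the kinases, from 2.52 to 31.6 CPM, median 11.8, in the DMSO lines, and from 0 to 52.5 CPM, median 10.2, in the paclitaxel lines, with log2 fold change 0.45, SE 0.47, adjusted p = 0.573. It was at 0 in Pac C1, the shallowest library, and at 52.5 CPM in Pac F10. The Blk estimate was 0.26 without Pac F10 and 0.30 without Pac D7. Btk, the kinase mutated in X-linked agammaglobulinaemia, had medians of 247 CPM in DMSO and 260.2 CPM in paclitaxel lines. Lyn had medians of 31.5 and 32.7 CPM, and Syk of 33.5 and 29.2 CPM. The adaptor Blnk, which couples Syk to Plcg2, had medians of 534 and 449 CPM. Adjusted p-values of these 4 genes lay between 0.283 (Blnk) and 0.876 (Syk) by edgeR, and the groups overlapped in each.

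A longer list of 30 further genes of receptor signalling gave no call. Of these, 25 were tested, 0 passed the threshold with all labels or without the doubtful libraries, and 5 had an unadjusted p under 0.05 with all labels by edgeR, a share below the 25.1% of all genes. DESeq2 and edgeR's likelihood ratio test called 0 of them too. Their median log2 fold change was 0.16, beside 0.07 over all genes, with 18 above 0 and 7 below, where 5343 of the 9445 genes lay above 0.

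Promoter sequence from RefSeq (GRCm38.p6, 250 bases before to 50 after the start) was at hand for 34 of the 44 genes. It is shown for Blnk and Vpreb3, in which the octamer was found, and for Bank1, a gene called without the doubtful libraries in which a searched motif was found. Cd79b, the other member called without them, had no promoter sequence at hand and was not searched. Each was searched on both strands for the octamer ATTTGCAT, bound by Pou2f2 with its coactivator Pou2af1, for an EBF-type palindrome CCCNNGGG and for the PU box GAGGAAG, bound by Spi1 and Spib. The octamer was in 2 of the 34 genes, Vpreb3 and Blnk, beside 1.97% of all 27025 genes with a promoter. The EBF-type palindrome was in 8 of the 34, beside 15.4% of all genes, and the PU box in 8 of the 34, also beside 15.4%. Capitals mark the octamer in Blnk (chr19:40994172-40994471, minus strand) and in Vpreb3 (chr10:75948050-75948349, plus strand), and the EBF-type palindrome in Bank1 (chr3:136326017-136326316, minus strand), and the 3 motifs share no overlap in these windows.
Blnk: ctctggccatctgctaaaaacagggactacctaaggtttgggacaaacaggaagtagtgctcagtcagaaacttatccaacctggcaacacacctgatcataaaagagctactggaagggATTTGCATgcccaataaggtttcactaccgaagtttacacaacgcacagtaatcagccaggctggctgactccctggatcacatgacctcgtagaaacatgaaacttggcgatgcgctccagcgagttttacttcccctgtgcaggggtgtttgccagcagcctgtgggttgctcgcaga
Vpreb3: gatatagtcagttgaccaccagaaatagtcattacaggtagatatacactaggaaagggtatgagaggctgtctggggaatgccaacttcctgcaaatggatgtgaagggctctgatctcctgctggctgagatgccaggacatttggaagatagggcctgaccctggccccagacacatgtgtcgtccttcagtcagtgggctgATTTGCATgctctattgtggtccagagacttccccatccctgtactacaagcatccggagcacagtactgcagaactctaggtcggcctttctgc
Bank1: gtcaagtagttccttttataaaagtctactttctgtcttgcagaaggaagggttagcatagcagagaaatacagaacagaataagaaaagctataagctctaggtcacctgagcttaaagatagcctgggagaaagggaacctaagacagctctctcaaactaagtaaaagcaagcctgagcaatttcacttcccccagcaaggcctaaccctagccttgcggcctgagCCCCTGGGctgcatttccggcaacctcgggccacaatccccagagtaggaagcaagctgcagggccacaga
The matches begin 130 (Blnk), 45 (Vpreb3) and 21 (Bank1) bases before the start. They describe letters only, and binding was not measured.

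Of the 9 surface antigens tested, 0 passed the threshold with all labels or without the doubtful libraries. Their estimates were below 0 for 8 and above 0 for Ptprc alone, beside 4102 of all 9445 genes below 0, and this share was not tested. Ms4a1 (chr19:11249675-11266241), which encodes CD20, the target of rituximab, had the largest SD of log2 CPM of the set in both groups. It ranged from 6.95 CPM (DMSO 11) to 579.9 CPM (DMSO 7), with a median of 141 CPM, in the DMSO lines. It ranged from 0 CPM (Pac C3) to 407 CPM (Pac H9), with a median of 12.5 CPM, in the paclitaxel lines. Below the lowest DMSO line lay 8 paclitaxel lines, most of them at a few CPM or less, and the remaining lines overlapped the lower and middle part of the DMSO range. The difference was large but not past the threshold, and lines of 1 group differed widely among themselves (log2 fold change -1.84, SE 0.76, adjusted p = 0.128, and without the doubtful libraries log2 fold change -2.37, SE 0.77, adjusted p = 0.0483). Pac H9, which was closer to the DMSO mean over all genes, held the highest level of the paclitaxel group, 407 CPM. Within the DMSO lines, 5 lines held 421 CPM or more (DMSO 1, 2, 6, 7 and 9), while DMSO 3, 10 and 11 held 28.6, 31.8 and 6.95 CPM, so solvent lines also spanned nearly the whole range.

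Cd38, an ectoenzyme of the B-cell surface, ranged from 136 CPM (DMSO 12) to 328 CPM (DMSO 7), with a median of 267 CPM, in the DMSO lines, and from 24.7 CPM (Pac D10) to 308 CPM (Pac H9), with a median of 162 CPM, in the paclitaxel lines. All but 2 paclitaxel lines lay below the DMSO median. The difference missed the threshold (log2 fold change -0.62, SE 0.22, adjusted p = 0.0736), also without DMSO 12, which held the lowest DMSO level, and Pac H9, which held the highest paclitaxel level (log2 fold change -0.76, SE 0.22, adjusted p = 0.0229). Ptprc, the phosphatase CD45, went the other way, from 45.2 to 104 CPM, median 78.5, in the DMSO lines, and from 60.3 to 236 CPM, median 104, in the paclitaxel lines. Above the highest DMSO line lay 9 paclitaxel lines and 0 lay below the lowest (log2 fold change 0.63, SE 0.17, adjusted p = 0.0166, and without the doubtful libraries log2 fold change 0.60, SE 0.17, adjusted p = 0.0261). Leaving out Pac C1, the shallowest library, brought Ptprc to an adjusted p of 0.00836 by the same test.

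Cd93, a receptor of immature B cells, ranged from 7.55 CPM (DMSO 12) to 135 CPM (DMSO 8), with a median of 60.3 CPM, in the DMSO lines, and from 3.08 CPM (Pac D10) to 207 CPM (Pac D7), with a median of 19.8 CPM, in the paclitaxel lines (log2 fold change -0.27, SE 0.52, adjusted p = 0.784). High and low lines occurred in both groups, and with single libraries left out the estimate ran from -0.59 (without Pac D7) to -0.097 (without DMSO 11). Cd52, a small glycoprotein of lymphocytes, lay at 125 to 326 CPM in DMSO lines, while 10 paclitaxel lines lay below that range and 2 above it, Pac D7 at 1138 CPM among them. Its estimate was -0.20 with all libraries and -0.76 without Pac D7, with adjusted p-values of 0.792 and 0.122 by edgeR. Cd37, a tetraspanin, had log2 fold change -0.52, SE 0.19, adjusted p = 0.0837, and Cd72, Cd24a and Cd22 had estimates of -0.44, -0.32 and -0.26. Exons of Cd72, Cd52 and Cd37 overlap those of Tesk1, Crybg2 and Tead2 on the opposite strand near the 3′ end, and whether counting used strand was not stated, so their levels may include reads of these neighbours.

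**Figure D3:**
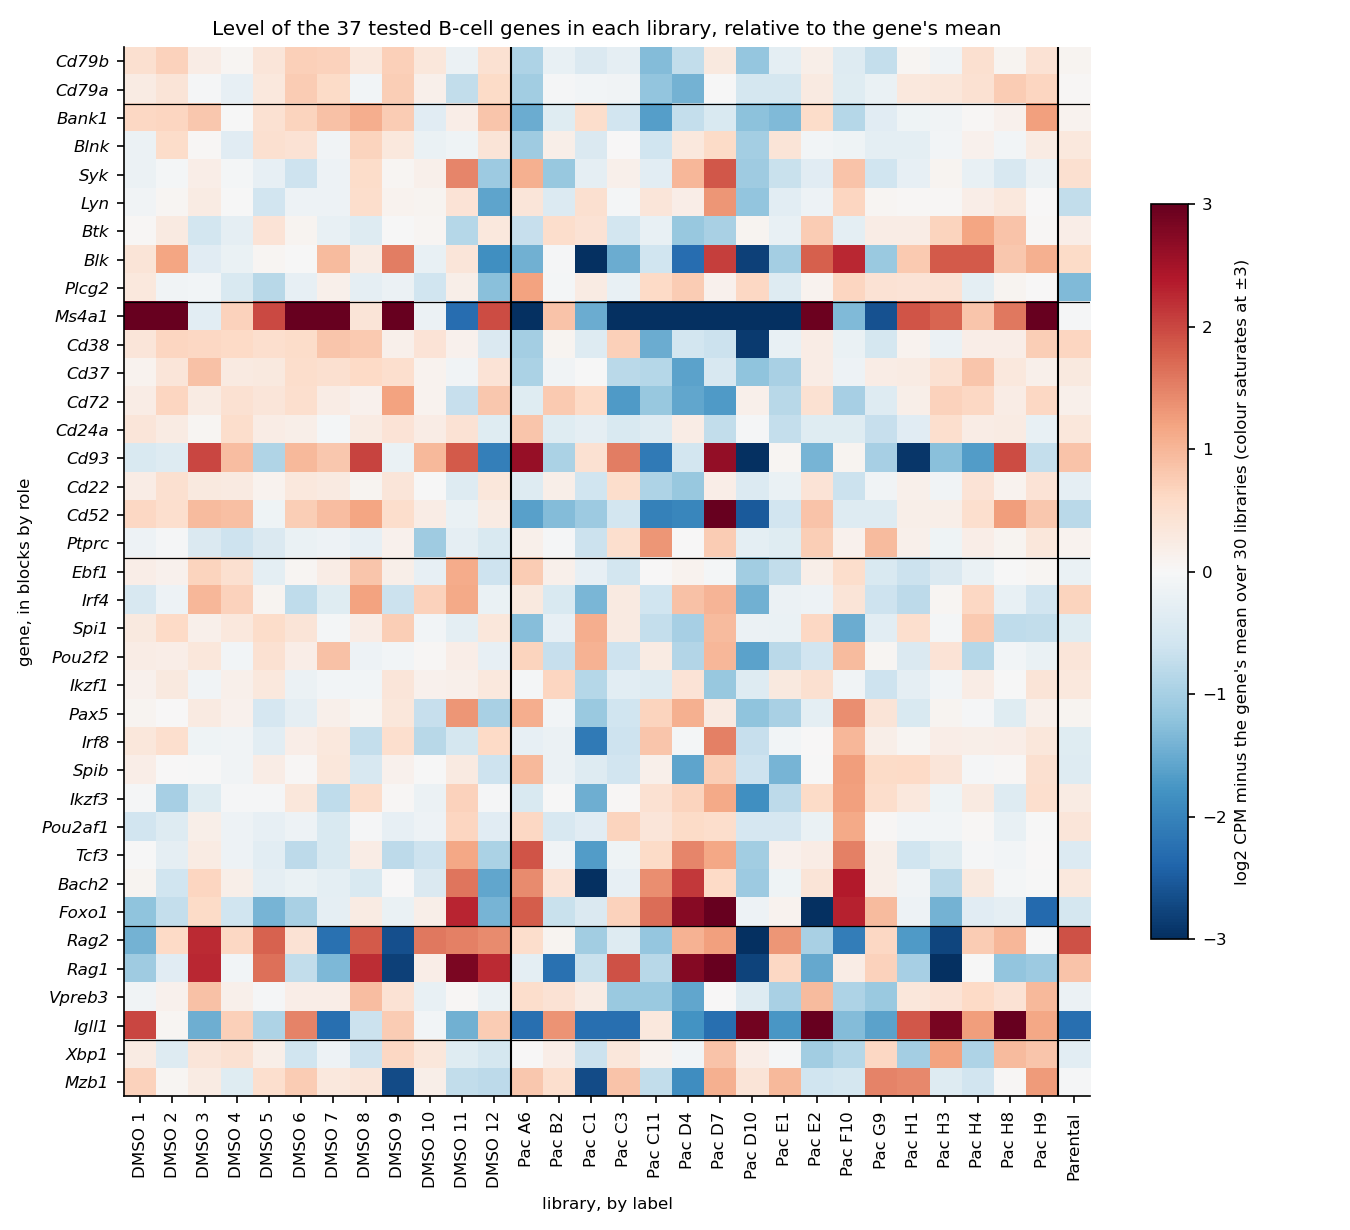
Level of the 37 tested genes in each library as log2 CPM minus the gene's mean over the 30 libraries, with genes in blocks by role and libraries by label, DMSO, paclitaxel and parental from left to right. Ms4a1, Cd93, Rag1, Rag2 and Igll1 show strong red and blue in both treatment groups. Blk and Foxo1 do so mainly among the paclitaxel lines, while Cd79b, Blnk, Cd22 and Ikzf1 stay paler.

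Of the 13 transcription factors tested, 0 passed the threshold, with 8 estimates above 0 and 5 below. Pax5, Ebf1, Tcf3 and Ikzf1 exceeded the floor in all 30 libraries. Pax5, which commits cells to the lineage, ranged from 20.6 CPM (DMSO 12) to 104 CPM (DMSO 11), with a median of 43.5 CPM, in the DMSO lines, and from 17.5 CPM (Pac D10) to 109 CPM (Pac F10), with a median of 40.5 CPM, in the paclitaxel lines (log2 fold change 0.11, SE 0.25, adjusted p = 0.822). Ebf1, which acts with it, ranged from 34.7 CPM (DMSO 12) to 117 CPM (DMSO 11), with a median of 61.8 CPM, in the DMSO lines, and from 25.7 CPM (Pac D10) to 91.3 CPM (Pac A6), with a median of 51.9 CPM, in the paclitaxel lines (log2 fold change -0.39, SE 0.18, adjusted p = 0.167). In 15 of the 17 paclitaxel lines Ebf1 lay below the DMSO median, and 3 lay below the lowest DMSO line, which was DMSO 12. Without DMSO 12 and Pac H9, 6 of 16 paclitaxel lines lay below the lowest DMSO line (log2 fold change -0.47, SE 0.18, adjusted p = 0.0847), and without DMSO 11 the estimate was -0.25. Pax5 and Ebf1 moved together between lines, with r = 0.89 in DMSO lines (permutation test, adjusted p = 0.00039, rho 0.81, adjusted p = 0.00617) and r = 0.76 in paclitaxel lines (adjusted p = 0.00113, rho 0.69, adjusted p = 0.00617). Without the 2 lines farthest from the Pax5 median r was 0.74 and 0.63. On the first principal component, the main axis of variation over all tested genes, Pac A6, C11, D4, D7, F10 and G9 lay at 43.3 to 88.9. The other paclitaxel lines lay at -4.74 or lower, and all had less Pax5 than those named. DMSO 11, highest of its group for both genes, lay at 55.1, the other DMSO lines at 0.754 or lower. Whether the relation goes beyond this wider difference between lines was not tested.

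Bach2, a repressor that holds back plasma cell differentiation, ranged from 9.56 CPM (DMSO 12) to 89.3 CPM (DMSO 11), with a median of 24.7 CPM, in the DMSO lines, and from 0 CPM (Pac C1) to 154 CPM (Pac F10), with a median of 33.1 CPM, in the paclitaxel lines (log2 fold change 0.61, SE 0.37, adjusted p = 0.301). Foxo1, which drives Rag1 and Rag2 in progenitors and is held down by PI3-kinase, ranged from 3.96 CPM (DMSO 5) to 57.5 CPM (DMSO 11), with a median of 8.36 CPM, in the DMSO lines, and from 0.457 CPM (Pac E2) to 96.6 CPM (Pac D7), with a median of 10.3 CPM, in the paclitaxel lines (log2 fold change 1.00, SE 0.53, adjusted p = 0.236). A single DMSO line, DMSO 11, held the highest level of its group for both, and without it the Foxo1 estimate was 1.64 with an adjusted p of 0.0381 by edgeR. Without DMSO 11 the Bach2 estimate was 0.95, and without Pac F10, which held the highest Bach2 level, it was 0.37. The highest Foxo1 level of the paclitaxel lines was in Pac D7. Tcf3, which encodes the E proteins, had an estimate of 0.59 and an adjusted p of 0.196. Medians of Ikzf1 were 199.8 and 169 CPM, and of Pou2af1 198 and 225 CPM, in DMSO and paclitaxel lines. Spi1, Spib, Pou2f2, Ikzf3, Irf4 and Irf8 had estimates between -0.35 (Irf4) and 0.28 (Ikzf3). Both limits rested partly on 1 library, since Irf4 was at -0.21 without DMSO 11 and Ikzf3 at 0.17 without Pac F10.

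Irf4 and Irf8, related factors that bind DNA together with Spi1 or Spib, had correlations of opposite sign in the groups. Over the 12 DMSO lines r was -0.81 (permutation test, adjusted p = 0.00622, rho -0.71, adjusted p = 0.0232), and it was -0.70 without the 2 lines farthest from the Irf4 median. No DMSO line held an Irf4 level between 81.3 CPM (DMSO 5) and 123 CPM (DMSO 10), so this relation rests partly on a gap between lines. Over the 17 paclitaxel lines r was 0.56 (adjusted p = 0.0243) but rho was 0.31 (adjusted p = 0.33), and r was 0.39 without Pac D7 and Pac D10, so that those lines held part of the relation. The difference between the groups was not tested. Of 12 correlations, 6 pairs in each group, 8 had an adjusted p of r under 0.05, and those of Spi1 with Spib and of Cd24a with Cd93 did not, with r between -0.15 and 0.38. All points share library depth and the lines' common origin.

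**Figure D4:**
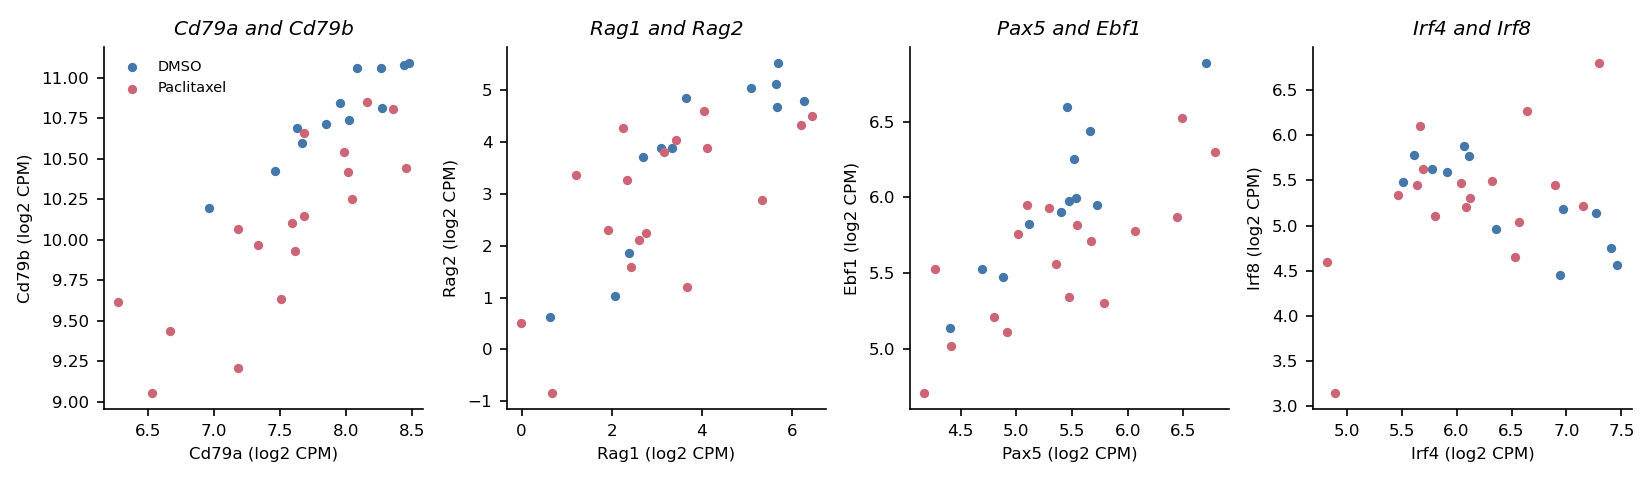
Levels of 4 pairs of genes in log2 CPM, with a point for each DMSO (blue) and paclitaxel (red) library. Cd79a with Cd79b, Rag1 with Rag2, and Pax5 with Ebf1 rise together in both groups, while Irf8 falls with Irf4 over the DMSO lines (r = -0.81).

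Genes of the pre-B stage gave an uneven picture: Vpreb3 was abundant, the surrogate light chain proper was scarce, and Rag1 and Rag2 varied widely between lines of both groups. Vpreb3, a relative of Vpreb1 that associates with immunoglobulin heavy chains, ranged from 906 CPM (DMSO 10) to 2024 CPM (DMSO 8), with a median of 1174 CPM, in the DMSO lines, and from 363 CPM (Pac D4) to 2097 CPM (Pac H9), with a median of 1257 CPM, in the paclitaxel lines (log2 fold change -0.18, SE 0.23, adjusted p = 0.663). Its estimate was -0.30 without DMSO 12 and Pac H9, of which Pac H9 held the highest paclitaxel level, and -0.10 without DMSO 8. Igll1, the surrogate light chain's constant part, ranged from 0 CPM (DMSO 7) to 10.2 CPM (DMSO 1), with a median of 2.11 CPM, in the DMSO lines, and from 0 CPM (Pac A6) to 40.7 CPM (Pac H8), with a median of 2.78 CPM, in the paclitaxel lines, and it exceeded the floor in 17 of 30 libraries (log2 fold change 1.37, SE 0.76, adjusted p = 0.258). Above the highest DMSO line lay 4 paclitaxel lines (Pac D10, E2, H3 and H8), while Pac A6, C1, C3 and D7 had 0 counts, so this estimate rests on few libraries. Without Pac H8 it was 0.93. Vpreb1, its variable part, reached 3.89 CPM in DMSO 3 among the DMSO lines and 13.04 CPM in Pac H8, 11.7 CPM in Pac H3 and 7.69 CPM in Pac H4 among the paclitaxel lines, and exceeded the floor in 15 libraries. Vpreb2 had 10 counts in all. Transcripts of Vpreb1 and Vpreb2 are 97.4% identical over 759 bases, with 20 differences and a longest identical run of 196 bases, so reads may be lost or exchanged between them and both levels are uncertain.

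Rag1 and Rag2, the recombinase subunits, ran in parallel. Rag1 ranged from 0.988 CPM (DMSO 9) to 76.6 CPM (DMSO 11), with a median of 10.8 CPM, in the DMSO lines, and from 0.435 CPM (Pac H3) to 86.3 CPM (Pac D7), with a median of 6.23 CPM, in the paclitaxel lines (log2 fold change -0.53, SE 0.59, adjusted p = 0.598). Without DMSO 11, which held the highest DMSO level, the Rag1 estimate was -0.18, and without Pac D4 or Pac D7 it was -0.87 or -0.96. Rag2 ranged from 0.988 CPM (DMSO 9) to 45.2 CPM (DMSO 3), with a median of 19.7 CPM, in the DMSO lines, and from 0 CPM (Pac D10) to 23.6 CPM (Pac E1), with a median of 9.01 CPM, in the paclitaxel lines (log2 fold change -0.95, SE 0.46, adjusted p = 0.193). In 15 of the 17 paclitaxel lines Rag2 lay below the DMSO median, and 2 lay below the lowest DMSO line, while without DMSO 12 and Pac H9 11 of 16 lay below the DMSO median. Between lines r was 0.88 in the DMSO group (permutation test, adjusted p = 0.00012, rho 0.87, adjusted p = 0.00236) and 0.64 in the paclitaxel group (adjusted p = 0.0104, rho 0.59, adjusted p = 0.0236), and without the 2 lines farthest from the Rag1 median it was 0.84 and 0.55. Dntt, the terminal transferase of early progenitors, exceeded the floor in 8 libraries and reached 8.11 CPM in Pac D4, 7.47 CPM in Pac E1 and 5.30 CPM in Pac D7.

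Single control lines differed at several stage genes at once. DMSO 9 held 575 CPM of Ms4a1, 0.988 CPM of Rag1 and 48.4 CPM of Irf4. DMSO 11 held 6.95 CPM of Ms4a1, 76.6 CPM of Rag1 and 169 CPM of Irf4. These lines had no drug and the same schedule, yet sat near opposite ends of the DMSO range for Ms4a1 and Rag1. DMSO 11 differed well beyond these genes, with the lowest correlation to the DMSO mean of its group over all tested genes (r = 0.912). DMSO 9 was the shallowest DMSO library, at 1053948 counts. Among paclitaxel lines, Pac D7 held 1.40 CPM of Ms4a1 with 86.3 CPM of Rag1 and 207 CPM of Cd93, and Pac H3 held 120.4 CPM of Ms4a1 with 0.435 CPM of Rag1 and 13.5 CPM of Cd93. The Rag1 values of DMSO 9 and Pac H3 were 1 count each, below the floor of 3 counts.

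Of the 4 plasma cell genes of the set, Prdm1 and Sdc1 were too low to test, and neither of the other two passed the threshold. Prdm1, which encodes Blimp-1, had 31 counts over all libraries and at most 2.79 CPM (Pac D7). Sdc1, the plasma cell antigen CD138, had at most 2.55 CPM in DMSO lines and 4.16 CPM in paclitaxel lines, the latter in the shallowest library. Xbp1, the factor that expands the secretory apparatus, ranged from 8.47 to 20.8 CPM, median 13.5, in the DMSO lines, and from 6.17 to 31.3 CPM, median 14.3, in the paclitaxel lines (log2 fold change 0.19, SE 0.24, adjusted p = 0.645), and its estimate was 0.093 without DMSO 12 and Pac H9 and 0.098 without Pac H3. Mzb1, a chaperone of immunoglobulin secretion, ranged from 0 to 5.56 CPM, median 3.58, in the DMSO lines, and from 0 to 9.51 CPM, median 4.11, in the paclitaxel lines (log2 fold change 0.39, SE 0.38, adjusted p = 0.546), but it shares 578 exonic bases near its 3′ end with SPATA24, so its counts may be split. A further list of 14 plasma cell genes, which holds chaperones and secretory genes that most cells express, such as Hspa5 and Ssr4, summed to 1242 to 1592 CPM in the DMSO lines and 1077 to 1938 CPM in the paclitaxel lines.

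Lines of the same treatment differed widely at several members. The SD of log2 CPM was larger in paclitaxel than in DMSO lines for 31 of 37 members (83.8%), beside 87.2% of all 9445 genes. With all libraries thinned to the depth of the smallest it was larger for 83.8% of members and 76.2% of all genes, so that the order of both shares changed. Without DMSO 12 and Pac H9 it was larger for 35 of 37 (94.6%, beside 89.2%). Median SD over members was 0.45 in DMSO lines and 0.78 in paclitaxel lines, against 0.46 and 0.68 over all genes. Ms4a1 had the largest SD in both groups, 2.12 and 2.99, and it was followed by Igll1 (2.24), Blk (1.93), Rag1 (1.78), Cd93 (1.77) and Bach2 (1.76) in the paclitaxel lines. In the DMSO lines it was followed by Rag1 (1.79), Rag2 (1.67), Igll1 (1.29), Cd93 (1.27) and Foxo1 (1.04). The biological coefficient of variation of Ms4a1, 1.35, exceeded that of 99.6% of the tested genes. Of these genes, Igll1 exceeded the floor in 17 of the 30 libraries and Rag1 and Rag2 in 26 each, and the part of counting error in their spread was not tested. With 1 library left out, the estimate of 20 of the 37 members moved by over 1.5 times, and those of Cd79b, Bank1, Ptprc, Plcg2, Ms4a1 and Cd38 were among the 17 that did not. Leaving out both doubtful libraries moved 7 estimates by that much, those of Pax5, Spib, Syk, Lyn, Vpreb3, Xbp1 and Mzb1, and moving the labels moved 10, those of Blk, Cd93 and Rag1 in addition.

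**Figure D5:**
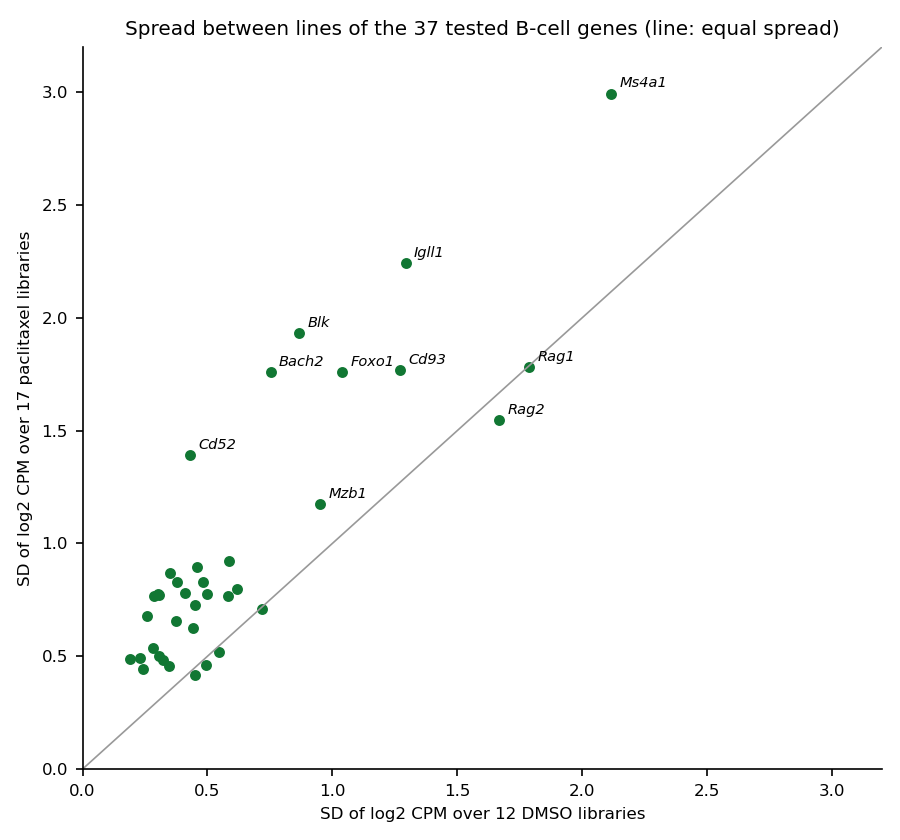
SD of log2 CPM of each of the 37 tested genes over 12 DMSO libraries (x axis) and 17 paclitaxel libraries (y axis), with the line of equal spread. Most genes lie above the line, Ms4a1 is farthest out, and Rag1 and Rag2 lie near or below it.

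The library labelled Parental lay within the DMSO range for 34 of the 37 tested members, above it for 0 and below it for 3. Those 3 were Cd52 (81.3 CPM, lowest DMSO line 125 CPM), Spi1 (27.3 against 28.4 CPM) and Plcg2 (17.8 against 18.6 CPM). Its Cd79b level was 1392 CPM and its Ms4a1 level 35.0 CPM, both inside the range of both treatment groups. As 1 library, with a label in doubt, it carries no error of its own.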

How the data were processed

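RNA from 30 lines was made into 3′-end libraries with a molecular identifier on each cDNA, and the authors aligned reads with STAR 2.5.1b to GRCm38 (mm10) and deposited whole-number counts per gene without normalization. Whether identifiers were collapsed, whether counting used strand and which line was in which preparation pool are not given in the sources used here. Intervals cover counting error and spread between lines only. Symbols came from gencode release M21 (GRCm38) by gene identifier, and were found for 55141 of 55401 gene rows. Columns of per-sample values left unused numbered 0.

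Groups followed the treatment in the labels. The phenotype groups of the study are not in the labels and were not used. Deposited counts were tested with edgeR 4.0.16 in R 4.3.3 (filterByExpr, TMM factors, two-sided quasi-likelihood F test, Benjamini-Hochberg over all tested genes, threshold 0.01), with 12 DMSO and 17 paclitaxel libraries in the fit and the parental library outside it. Levels are TMM-normalized CPM, and log2 values used a prior count of 2. Correlations of fixed gene pairs used 100000 permutations in numpy 2.4.6 (two-sided), with ranks from scipy 1.17.1. Of 8 pairs, 2, Vpreb1 with Igll1 and Prdm1 with Irf4, were left out because a gene was not tested. The edgeR and correlation scripts were tested on simulated data.

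Members and gene lists were chosen with earlier results of these data known. Full statistics were given for members called with all labels or without DMSO 12 and Pac H9 and for the 6 members of largest SD in each group. Further members had levels given for their stage. From other lists called genes were named, and Ighm, Hbb-bt, Cd3e, Cd4, Kit, Cd34, Hspa5, Ssr4 and Iglc3 were chosen after their values were seen, as were the other members given with full statistics. Levels of single genes of the longer receptor signalling list are not reported here. Alternatives were the labels as above, RLE factors, DESeq2 1.42.0, the likelihood ratio test, no filter, thinning to 480919 counts, total counts as a covariate, a threshold of 0.05 and each library left out.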

Additional observations from a re-analysis of the deposited data

How the results depend on the processing

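The count of called members, 0 with all labels, was 2 without DMSO 12 and Pac H9 (Cd79b, Bank1), 2 with DESeq2 (Cd79b, Ptprc), 3 with the likelihood ratio test (Cd79b, Ptprc, Bank1), 2 with log10 total counts as a covariate (Ptprc, Bank1), 4 at a threshold of 0.05, and 0 to 2 when single libraries were left out (1 without DMSO 11, Pac C1 or Pac H4, 2 without Pac H9). It was 0 with moved labels, RLE factors, no filter and thinning, which left 28 members tested. Genes called numbered 208 with all labels, 321 without both doubtful libraries, 324 with moved labels, 491 with DESeq2, 448 with the likelihood ratio test, 112 after thinning, 714 at 0.05, and 139 to 299 with single libraries left out. The covariate gave 157 genes higher and 145 lower of 9445 tested. Genes called higher and lower numbered 159 and 140 of 9500 without DMSO 11, 120 and 129 of 9472 without Pac C1, and 97 and 125 of 9404 without Pac H4. They numbered 111 and 124 of 9443 without Pac H9, 81 and 95 of 9580 without DMSO 9, and 136 and 147 of 9580 without DMSO 12. In the receptor signalling, progenitor, mature B-cell, plasma cell and immunoglobulin lists, 25, 12, 12, 9 and 5 genes were tested with all labels. Calls in these lists, with the share of all genes called in brackets, numbered 1 with all labels (2.20%) and 5 without both libraries (3.36%). They numbered 4 with moved labels (3.39%), 2 with DESeq2 (5.20%) and 5 at 0.05 (7.56%). With single libraries left out they numbered 1 to 3 (2 without DMSO 9, 3 without DMSO 12, 2 without Pac H9). No share was tested. Estimates near 0 changed sign for Pax5 (log2 fold change -0.027 with moved labels, -0.034 without Pac F10 and up to 0.34 with another library left out) and for Syk (-0.040 with moved labels, -0.030 after thinning, and -0.15 to 0.35 with single libraries left out, below 0 without Pac D7, DMSO 12 or Pac D4), and r of Cd24a with Cd93 in DMSO lines was -0.16 without DMSO 12. The cause of these changes was not tested. No other estimate of a tested member changed sign. Depth limited the genes at the floor in Pac C1, where 3 counts are 6.24 CPM. No paired analysis was possible because the groups share no replicate numbers.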

Other observations

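Of gene lists that mark other stages of the lineage, the mature B-cell list held the only call with all labels. Klf2, a factor that maintains quiescence and homing of mature lymphocytes, ranged from 23.7 CPM (DMSO 11) to 103 CPM (DMSO 4), with a median of 64.5 CPM, in the DMSO lines, and from 7.90 CPM (Pac D4) to 69.2 CPM (Pac D7), with a median of 17.1 CPM, in the paclitaxel lines. Below the lowest DMSO line lay 11 of 17 paclitaxel lines, and Klf2 fell (log2 fold change -1.31, SE 0.27, adjusted p = 0.00283, edgeR's quasi-likelihood test), as it did without DMSO 12 and Pac H9 (log2 fold change -1.28, SE 0.29, adjusted p = 0.00498), but it was not called with moved labels. It was 1 of 12 tested genes of a list of 20, beside 2.20% of all genes called. Without the doubtful libraries 13 genes of this list were tested and 3 fell, beside 1.70% of all genes called lower, and the share was not tested. The others were Ighd, the constant region of IgD on mature naive cells, and Tnfrsf13c, the BAFF receptor. Ighd ranged from 35.7 CPM (DMSO 12) to 215 CPM (DMSO 9), with a median of 107 CPM, in the DMSO lines, and from 6.08 CPM (Pac A6) to 235 CPM (Pac H9), with a median of 29.1 CPM, in the paclitaxel lines. It had log2 fold change -1.22, SE 0.38, adjusted p = 0.0418 with all labels and log2 fold change -1.70, SE 0.32, adjusted p = 0.000858 without both libraries, and its highest paclitaxel level was in Pac H9. Tnfrsf13c went from log2 fold change -0.96, SE 0.29, adjusted p = 0.0363 to log2 fold change -1.20, SE 0.25, adjusted p = 0.00254, and DMSO 12 held its lowest DMSO level, 3.02 CPM. Unlike Klf2, both were also called by edgeR with moved labels, beside 3.39% of all genes. There Ighd had log2 fold change -1.70, SE 0.31, adjusted p = 0.000557, and Tnfrsf13c had log2 fold change -1.26, SE 0.26, adjusted p = 0.00202.

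In the progenitor list, 0 of 12 tested genes of 19 were called with all labels, and Bcl11a, a factor of early lymphoid progenitors, rose without the doubtful libraries (log2 fold change 3.04, SE 0.69, adjusted p = 0.00492, from log2 fold change 2.48, SE 0.66, adjusted p = 0.0181 with all labels). Bcl11a was also called by edgeR with moved labels (log2 fold change 3.02, SE 0.67, adjusted p = 0.00399), beside 3.39% of all genes. Bcl11a lay at 0 to 9.88 CPM in DMSO lines and 1.70 to 38.3 CPM in paclitaxel lines. Kit and Cd34, markers of uncommitted progenitors, had 0 counts in all 30 libraries, but they were the only 2 of the 19 genes at 0. The list summed to 471 to 1161 CPM in the DMSO lines and 390 to 987 CPM in the paclitaxel lines. In the library labelled Parental it summed to 1868 CPM, above every DMSO line. In the plasma cell list 0 of 9 tested genes of 14 were called with all labels and 0 without the doubtful libraries, with 1 and 2 genes at an unadjusted p under 0.05, beside 25.1% and 25.5% of all genes. Of 5 immunoglobulin constant genes edgeR called 0 with all labels, where 2 had an unadjusted p under 0.05 and DESeq2 called Iglc1, and the lambda gene Iglc2 rose without the doubtful libraries (log2 fold change 3.27, SE 0.76, adjusted p = 0.0059, from log2 fold change 2.10, SE 0.77, adjusted p = 0.0846 with all labels), while DMSO 12 held its highest DMSO level, 761 CPM. Iglc2 was also called by edgeR with moved labels (log2 fold change 3.31, SE 0.75, adjusted p = 0.00441), again beside 3.39% of all genes. Iglc2 and Iglc3 are near copies that can share reads, so their levels are uncertain. Of the tested T-cell, myeloid and erythroid genes, 0 were called with all labels, and 0 had an unadjusted p under 0.05.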
